A study of Sus scrofa with 22 samples.

Results

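The set described here holds 5 pig genes of the intestinal wall: the proteases MMP1 and MMP9, the protease inhibitor TIMP1, the collagen gene COL1A2 and the muscle gene DES. They were measured by 11 of the array's 43603 probes and make up 5 of the 24767 genes tested. Probes were assigned through the RefSeq accession that the array lists for them, NM_001166229 for MMP1, NM_001038004 for MMP9, NM_213857 for TIMP1, NM_001243655 for COL1A2 and NM_001001535 for DES. Where a gene had several probes the brightest was used and the others served as a check. The genes were picked because of their log2 ratios over the 4 groups of piglets, so the differences between those groups are given below as a description, with an error and without a test.

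The intestinal wall is held together by a collagen-rich matrix under the epithelium and by layers of smooth muscle around it. Matrix metalloproteinases are zinc-dependent enzymes, secreted as inactive precursors, that cut collagens and other matrix proteins. Tissue inhibitors of metalloproteinases bind the active enzymes and block them, and in the gut both sides of this balance are made during inflammation and wound repair by fibroblasts, epithelial cells, macrophages and neutrophils. Type I collagen, assembled from chains encoded by COL1A1 and COL1A2, is a main substrate of the collagenases, and desmin is the intermediate filament that ties together the contractile apparatus of muscle cells.

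RNA from the small intestine of 22 crossbred Large White × Danish Landrace piglets, specific pathogen free and called 3 days old in the labels, was hybridised to 22 arrays. The piglets came from 2 separate experiments on chemotherapy and had all been fitted under anaesthesia with feeding tubes and a jugular catheter, through which the drugs were given. The first compared 6 piglets given doxorubicin once (DOX, a topoisomerase II inhibitor) with 6 untreated ones; the second compared 5 piglets given busulfan plus cyclophosphamide (BUCY, alkylating agents) with 5 untreated ones. Values are log2 ratios of Cy5 (the piglet) to Cy3 (pooled RNA of all samples), so that 0 is the level of the pool. The sources used here give no dose, litter, gut segment or time between treatment and sampling. Piglets are numbered within their group only to name them. The enterocyte markers FABP2, FABP1, APOA1, APOA4, ANPEP, SLC5A1 and EPCAM stood well above background on 22 of 22 arrays.

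Between 59.6% and 72.5% of the probes on an array were well above background. limma called 210 of 24767 genes after DOX (0.848%) and 4279 after BUCY (17.3%) at an adjusted p under 0.05. Normalisation by each array's median in place of loess moved the median of all genes in the BUCY comparison to -0.125, and the share of BUCY calls that were higher after treatment went from 47.7% to 16.7%. With that normalisation the share went from 43.3% to 30.3% for DOX and from 51.7% to 37.8% between the untreated groups. The enterocyte markers were lowest in piglets 2 and 3 of the BUCY treated group, with means of -1.12 and -2.07 on the log2 scale against 0.26 to 0.82 in the other 3, so values that rest on these piglets are also given without them. Array number limits the precision throughout.

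**Figure D1:**
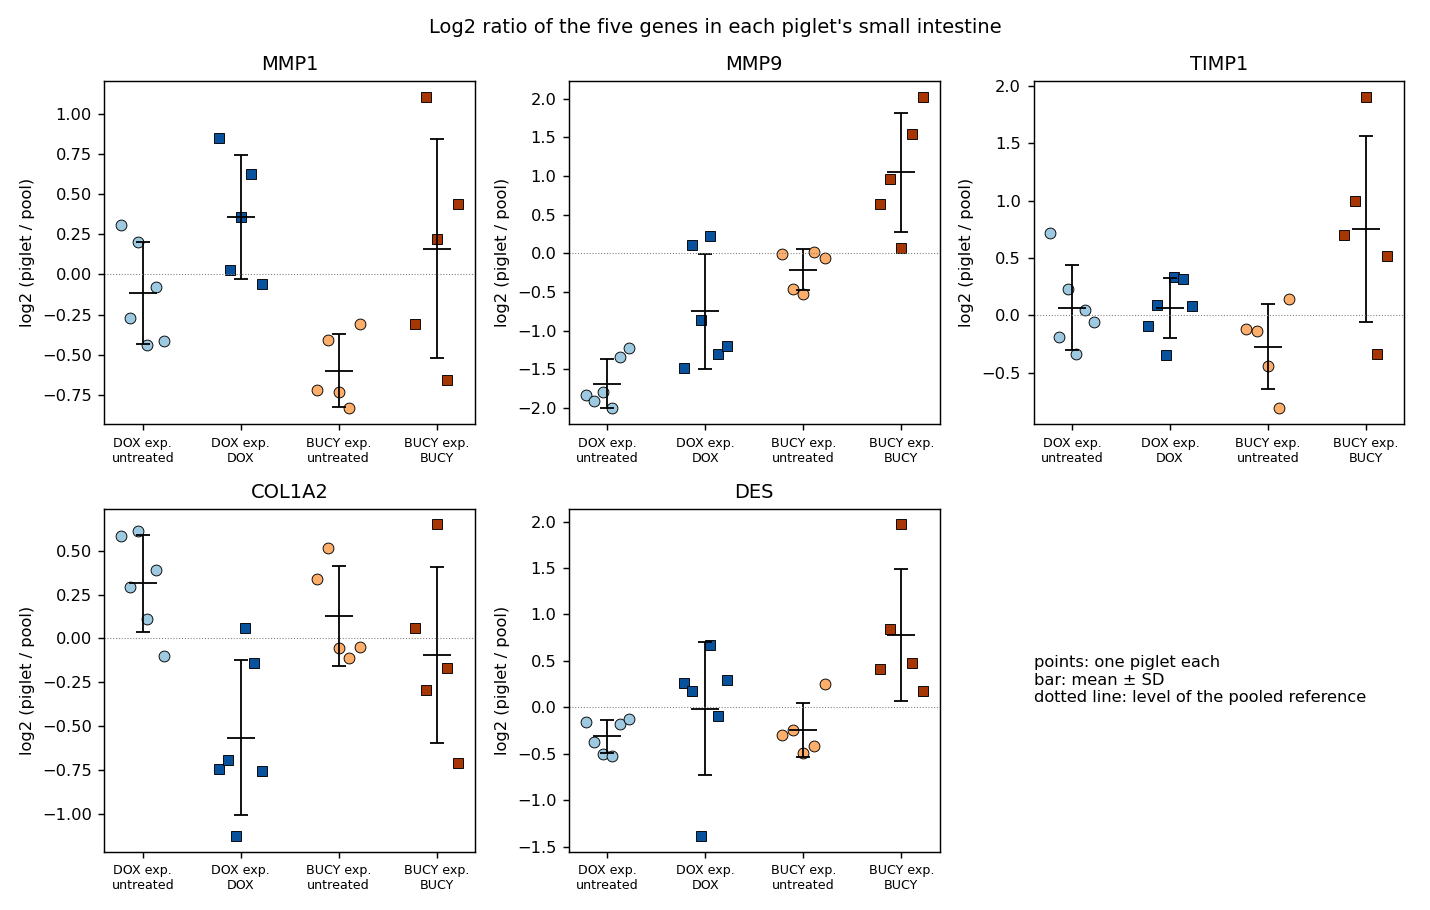
Log2 ratio to the pooled reference (vertical axis) of MMP1, MMP9, TIMP1, COL1A2 and DES in the 4 groups (horizontal axis). Each point is 1 piglet and bars are the mean ± SD. MMP9 lies between 0.065 and 2.03 in the BUCY treated piglets and does not exceed 0.018 in the untreated piglets of that experiment, while for COL1A2 5 of 6 DOX treated piglets lie below the lowest untreated one.

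MMP1, interstitial collagenase, which makes the first cut in fibrillar collagen, was higher in treated than in untreated piglets of both experiments, with overlapping groups. In the untreated piglets of the DOX experiment its log2 ratio ran from -0.44 to 0.31 with a median of -0.18, and in the DOX treated piglets from -0.061 to 0.85 with a median of 0.35. These figures leave out DOX treated piglet 2, whose spot the scanner software marked as an outlier. All 5 measured DOX treated piglets were above the untreated mean and 3 were above the highest untreated piglet. The BUCY treated piglets had -0.31, 1.11, 0.22, -0.66 and 0.44, and the untreated piglets of that experiment -0.72, -0.41, -0.73, -0.83 and -0.31. Piglets 1 and 4 of the BUCY treated group thus did not exceed the highest untreated one, and piglet 2 was the highest of all 21 measured. The mean was 0.47 higher after DOX on the log2 scale (SE 0.243, a ratio of 1.39) and 0.76 higher after BUCY (SE 0.254, a ratio of 1.69). Without BUCY treated piglets 2 and 3 the latter came to 0.43, and with median normalisation to 0.22.

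MMP9, gelatinase B, which degrades denatured collagen and basement membrane and is stored in neutrophil granules, had the largest differences of the set. The untreated piglets of the DOX experiment lay between -2.01 and -1.23 with a median of -1.81. After DOX the range was -1.48 to 0.22 with a median of -1.03. Every one of the 6 DOX treated piglets was above the untreated mean, but the groups overlapped, since piglets 2 and 4 stood at 0.11 and 0.22 and the other 4 between -1.48 and -0.87. In the BUCY experiment the untreated piglets had -0.0049, -0.47, -0.53, 0.018 and -0.064 and the treated ones 0.64, 0.96, 0.065, 1.55 and 2.03, so all 5 treated piglets were above all 5 untreated ones, in a comparison that called 17.3% of all genes. The share of all genes whose groups did not overlap was not computed. The mean was 0.93 higher after DOX (SE 0.306, 1.91-fold) and 1.26 higher after BUCY (SE 0.335, 2.39-fold).

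The untreated groups also differed in MMP9. Untreated piglets of the BUCY experiment had a mean of -0.21 ± 0.266 (SD, n = 5) and those of the DOX experiment -1.69 ± 0.319 (SD, n = 6), a gap of 1.48 on the log2 scale (SE 0.32, 2.78-fold) with no overlap between them, in a comparison that called 25.2% of all genes. On the 2 slides with both untreated groups it was 1.22 and 1.55. For this comparison too, the share of all genes without overlap was not computed. The gap exceeded the mean difference after either drug, and the DOX treated mean of -0.75 lay below that of untreated piglets in the BUCY experiment. Experiment and untreated group cannot be told apart here, and these untreated piglets are also the controls of both drug comparisons.

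The second MMP9 probe followed the first over the arrays (r = 0.965 over 22 arrays, as a description of 2 probes on shared RNA), with a wider spread. It put the difference at 1.61 after DOX, 1.21 after BUCY and 2.40 between the untreated groups. On this probe BUCY treated piglet 3 had -1.36, below the 5 untreated piglets at -0.96 to 0.33, so the BUCY groups overlapped. The excess of the BUCY over the DOX difference was 0.32 on the brighter probe and -0.40 on the second, and its sign therefore depends on the probe.

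Neutrophil and macrophage genes are the usual immune sources of MMP9, and their levels were read on the same arrays. Of 14 neutrophil markers listed, 5 were on the array (S100A8, S100A9, S100A12, LCN2 and LTF); S100A8 was above background on 13, S100A9 on 9, S100A12 on 17 and LCN2 on 7 arrays, while LTF was on 22. The mean of the 5 ranged from -0.33 to 0.84 in BUCY treated piglets (median -0.23) and from -0.24 to 0.26 in their controls (median 0.064). After DOX it ranged from -0.14 to 0.34 (median 0.079), against -0.30 to -0.022 (median -0.21). Between the untreated groups limma called LTF higher in the BUCY experiment (0.72, adjusted p = 0.00352), on the same side as MMP9. The other neutrophil markers had -0.048 to 0.28 there, with no call. The 7 of 12 macrophage markers on the array had medians of 0.30 after DOX against -0.011, and of -0.45 after BUCY against -0.34. These 7 genes did not go one way. CD163, a scavenger receptor of macrophages, was higher in both comparisons (log2 difference 1.31 after DOX, adjusted p = 5.07e-04, and 1.44 after BUCY, adjusted p = 1.68e-04), as was the endotoxin receptor CD14 (1.26, adjusted p = 0.00118, and 0.81, adjusted p = 0.0138). AIF1 had -0.44 after DOX (adjusted p = 0.217) and was lower after BUCY (-0.54, adjusted p = 0.0439), the complement genes C1QA, C1QB and C1QC had -0.37 to -0.31 after DOX and -0.67 to -0.57 after BUCY with no call, and MRC1 had 0.11 and 0.13. Macrophage markers that limma called lower in untreated piglets of the BUCY experiment were CD163 (-0.63, adjusted p = 0.0238), AIF1 (-0.81, adjusted p = 0.00133) and MRC1 (-1.005, adjusted p = 0.0109). These lay on the opposite side to MMP9. CD14 had 0.10 there and C1QA, C1QB and C1QC -0.27 to -0.20, with no call. The part of these cells in the MMP9 values was not tested, and in RNA of whole tissue more cells of a type and more RNA per cell cannot be told apart.

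TIMP1, the secreted inhibitor of these proteases, had almost the same mean with and without DOX and a higher mean after BUCY. In the DOX experiment the untreated piglets ran from -0.34 to 0.71 with a median of -0.0078, and the treated ones from -0.35 to 0.34 with a median of 0.087. The difference was -0.0038 (SE 0.26), with a 95% interval of -0.54 to 0.54. The BUCY treated piglets had 0.70, 0.99, 1.91, -0.34 and 0.51 and the untreated ones -0.12, -0.13, -0.44, -0.81 and 0.15. In 4 of the 5 treated piglets the value was above every untreated one, and piglet 4 lay inside the untreated range. The mean was 1.03 higher after BUCY (SE 0.284, 2.04-fold). It was 0.56 higher without treated piglets 2 and 3, and 0.50 with median normalisation.

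The other 2 TIMP1 probes gave 1.04 and 1.06 for BUCY and 0.0014 and -0.026 for DOX. On both of them BUCY treated piglet 4, at 0.04 and 0.09, was again the lowest of its group. The BUCY difference exceeded the DOX difference by 1.03 on the brightest probe. Without BUCY treated piglets 2 and 3 this excess was 0.57, below that of MMP9 at 0.68.

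COL1A2, which encodes the alpha 2 chain of type I collagen, was lower after DOX. In untreated piglets of the DOX experiment it ranged from -0.10 to 0.61 with a median of 0.34. In DOX treated piglets it ranged from -1.13 to 0.057 with a median of -0.72, and all 6 were below the untreated mean. Piglet 4, the highest of the 6 treated, was the only one inside the untreated range, and piglet 5 at -0.14 lay just below it. The mean was lower by 0.88 on the log2 scale (SE 0.209, 1.84-fold, 95% interval -1.31 to -0.45). On the 3 slides with both DOX groups the difference ran from -1.30 to -0.39.

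After BUCY the COL1A2 means lay closer together. Treated piglets had 0.058, -0.29, 0.65, -0.17 and -0.71, and untreated piglets of that experiment 0.34, 0.52, -0.056, -0.11 and -0.047. Treated piglet 3 was the highest and piglet 5 the lowest of the 10. Piglets 2, 4 and 5 lay below the lowest untreated piglet, piglet 3 above the highest and piglet 1 between them, so the treated range enclosed the untreated one. The difference was -0.22 (SE 0.229, 95% interval -0.70 to 0.25), and -0.77 with median normalisation. The array carries 1 probe each for COL1A2 and for MMP1, so neither has a second measurement. Of the 10 fibroblast markers listed, THY1, DCN and LUM were on the array. THY1 was above background on 6 arrays, DCN and LUM on 22. After DOX the log2 difference was -0.045 for THY1, -0.16 for DCN and -0.52 for LUM, with no call. The mean of these genes ran from -0.55 to 0.0051 in DOX treated piglets and from -0.16 to 0.065 in their controls. Its part in the COL1A2 values was not tested.

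DES, encoding desmin, was higher after BUCY, and on its brightest probe the DOX treated piglets were spread far more widely than their controls. On this probe untreated piglets of the DOX experiment lay close together, from -0.53 to -0.12 with a median of -0.28. The DOX treated piglets ranged from -1.39 to 0.67 with a median of 0.22, and their SD was 3.95 times that of the untreated group. In 5 of the 6 the value was above the highest untreated piglet, and in piglet 3 it was below the lowest. The mean difference was 0.30 (SE 0.285). The BUCY treated piglets had 0.41, 0.84, 1.97, 0.47 and 0.18, and the untreated ones -0.30, -0.25, -0.49, -0.42 and 0.25. Treated piglet 3 was far above the rest, and untreated piglet 5 was above the lowest treated one. The mean was 1.02 higher after BUCY (SE 0.312, 2.02-fold), 0.60 higher without treated piglets 2 and 3, and 0.38 higher with median normalisation.

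The other 3 DES probes gave smaller differences, 0.50 to 0.74 after BUCY and 0.06 to 0.16 after DOX. They placed BUCY untreated piglets 4 and 5 at 0.51 to 0.96, within the range of the treated piglets, whereas the brightest probe had piglet 4 at -0.42. In the DOX experiment the spread on these probes differed less, with SDs of 0.58 to 0.64 in treated and 0.46 to 0.54 in untreated piglets. Untreated piglet 5 of that experiment, at 0.59 to 0.84 on these probes, was above every DOX treated piglet. All 4 probes had DOX treated piglet 3 lowest of its group, at -1.39 to -0.99, and BUCY treated piglet 3 highest, at 1.16 to 1.97.

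**Figure D2:**
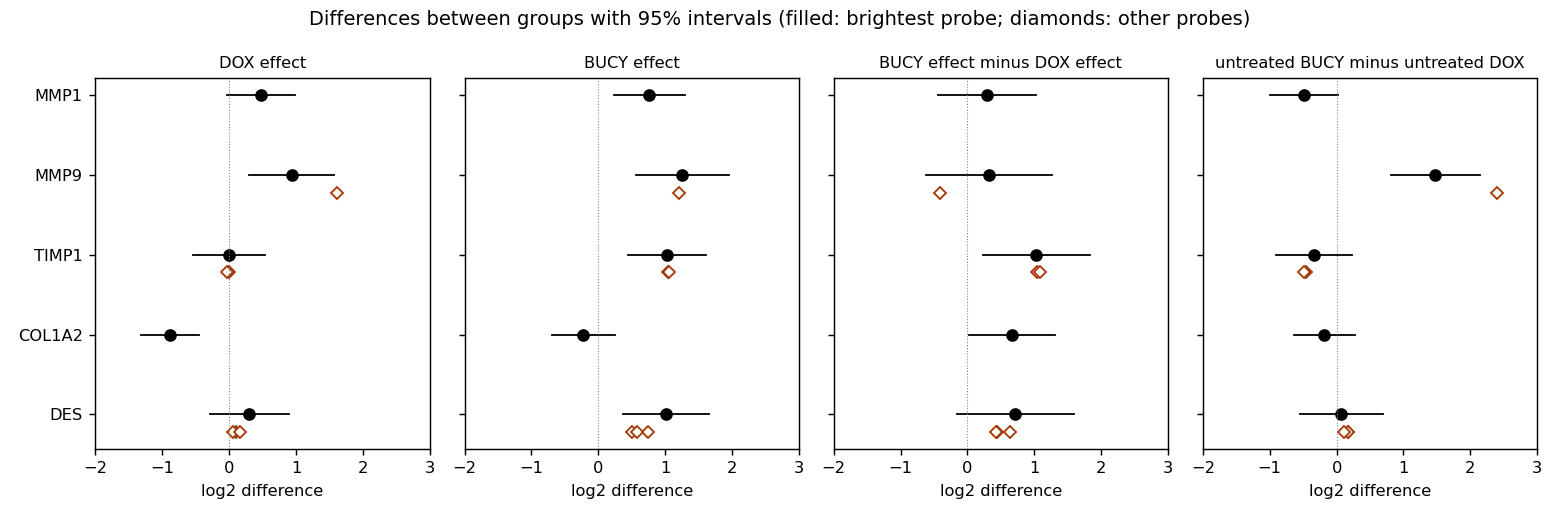
Log2 difference (horizontal axis) for each of the 5 genes (vertical axis) in the DOX comparison, the BUCY comparison, their difference and the comparison of the untreated groups. Filled points with bars are the brightest probe with its 95% interval, open diamonds are the other probes; the TIMP1 diamonds sit on the main point, those of DES lie nearer to 0 after BUCY, and the MMP9 diamond is on the other side of 0 for the difference between the drugs.

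Read across the 5 genes, limma called 1 of 5 after DOX (COL1A2, lower), where 0.848% of all genes were called (0.367% higher and 0.480% lower). After BUCY it called 4 of 5 (MMP1, MMP9, TIMP1 and DES, all higher), where 17.3% of all genes were called (8.23% higher and 9.04% lower). Between the untreated groups 1 of 5 was called (MMP9, higher in the BUCY experiment) against 25.2% of all genes (13.0% higher and 12.2% lower), and between the drug effects 0 of 5 against 5.88% (3.15% higher and 2.73% lower). Nothing is read from these counts, since the genes were chosen on the same values. The BUCY count was 1 without treated piglets 2 and 3, 1 with slide as a fixed block, 0 with median normalisation and 0 when only the BUCY experiment was fitted. The DOX count was 0 with median normalisation and in 15 of the 22 fits that left out a single array.

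On the brightest probes the SD of the BUCY treated piglets was 3.0 times that of their controls for MMP1, 2.88 times for MMP9, 2.21 times for TIMP1 and 2.44 times for DES. The second MMP9 probe also had the wider spread in treated piglets, with an SD of 1.68 against 0.54. On the other TIMP1 probes the SDs lay closer, at 0.49 and 0.47 in treated against 0.43 and 0.42 in untreated piglets. On the other DES probes the treated piglets had the smaller SD, 0.38 to 0.53 against 0.57 to 0.78. On the brightest probes no piglet was the highest for MMP1, MMP9, TIMP1 and DES alike. Piglets 2 and 3 were above every untreated piglet of their experiment for each of these genes. Piglet 2 had 1.11 for MMP1, the highest, 0.96 for MMP9, 0.99 for TIMP1 and 0.84 for DES. Piglet 3 was highest for TIMP1, COL1A2 and DES and lowest for MMP9. Piglet 5 was highest for MMP9 and lowest for COL1A2 and DES. Piglet 4 had the second highest MMP9 and the lowest MMP1 and TIMP1. Piglet 3 was also on the dimmest array, with a median Cy5 signal of 88 and 59.6% of probes above background; the part of array brightness was not tested.

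How the genes varied together within groups, which does not rest on the group means that chose them, was computed for 10 pairs on deviations from the group means, with a permutation test within groups adjusted over the 10 pairs. TIMP1 and DES moved together (r = 0.664, adjusted p = 0.0145; rho = 0.657, adjusted p = 0.0126; 22 piglets). TIMP1 and COL1A2 did so as well (r = 0.627, adjusted p = 0.0409; rho = 0.666, adjusted p = 0.0126). Without the 2 piglets farthest from the median of TIMP1 these correlations were 0.557 and 0.618. For COL1A2 and DES r was 0.595 (adjusted p = 0.0748) and rho 0.354 (adjusted p = 0.282), and without 2 piglets r was 0.338. MMP1 and TIMP1 passed by rank only (r = 0.569, adjusted p = 0.149; rho = 0.603, adjusted p = 0.0389; 21 piglets).

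The TIMP1 correlations rested in part on BUCY treated piglets 2 and 3. Without both, r was 0.418 for TIMP1 with DES (adjusted p = 0.11) and 0.501 for TIMP1 with COL1A2 (adjusted p = 0.124), by the same permutation test. With deviations taken within scan days as well, both passed by rank (adjusted p = 0.0463 each) and neither by r (0.665, adjusted p = 0.0617, and 0.638, adjusted p = 0.0545), by the permutation test. The 4 pairs that include MMP9 had r between -0.324 and -0.125, none passed, and with median normalisation all 4 were above 0. A relation of MMP9 to the other 4 genes was thus not detectable with 22 piglets.

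**Figure D3:**
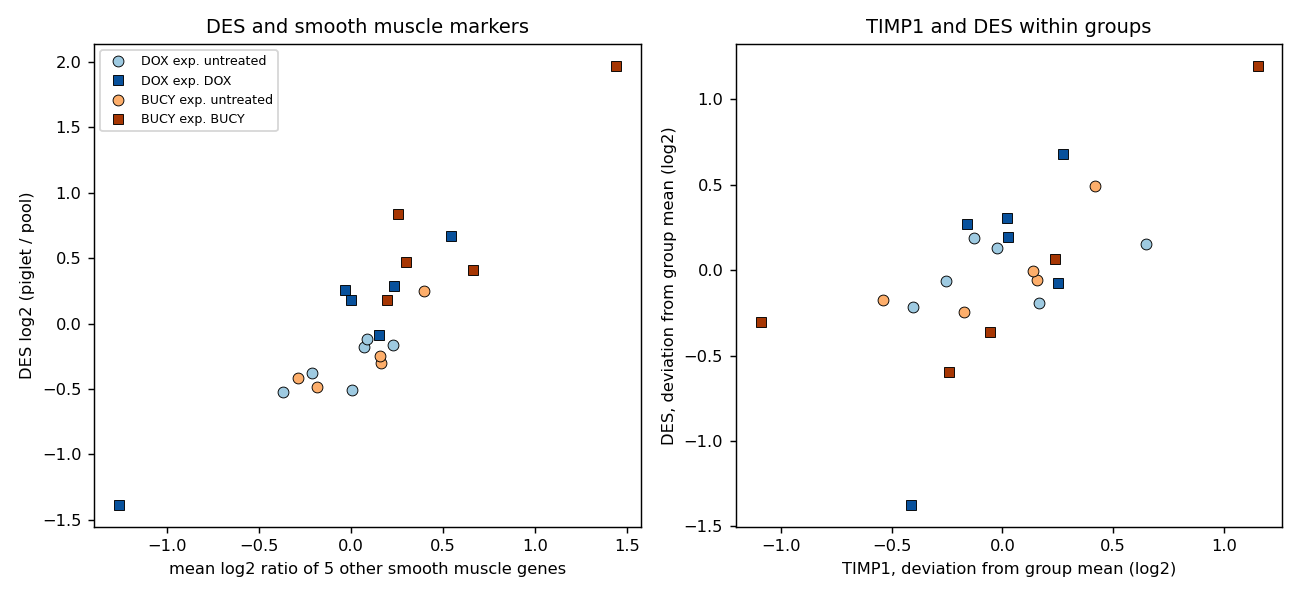
Left, log2 ratio of DES (vertical axis) against the mean log2 ratio of ACTA2, CNN1, MYLK, SMTN and MYL9 (horizontal axis); right, deviations from the group mean of DES (vertical) and TIMP1 (horizontal), both on the log2 scale, 1 point per piglet. DOX treated piglet 3 is at the bottom left and BUCY treated piglet 3 at the top right of the left panel, at -1.39 and 1.97 for DES.

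A group of 5 other smooth muscle genes was ordered much as DES was: ACTA2 (smooth muscle actin), CNN1 (calponin), MYLK (myosin light chain kinase), SMTN (smoothelin) and MYL9 (myosin light chain). Their mean was -1.26 in DOX treated piglet 3 and 1.44 in BUCY treated piglet 3, the lowest and highest of the 22. In the other DOX treated piglets it was -0.030 to 0.55, against -0.37 to 0.23 in their controls. The BUCY treated piglets had 0.66, 0.26, 1.44, 0.30 and 0.20, against 0.17, 0.16, -0.18, -0.29 and 0.40 in their controls. Markers of skeletal muscle and of enteric neurons and glia had medians of 0.25 and 0.20 after BUCY against -0.11 and 0.062. How much of each layer of the wall a sample held, and its part in the DES values, was not tested.

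The genes whose pattern over the 22 arrays was nearest to each of the 5 were found by the root mean square difference in log2 ratio, among about 2630 genes with a symbol. For DES these were MYL9 (0.214), CNN1 (0.263) and TPM1 (0.287), against a root mean square of 0.637 for DES itself. For COL1A2 they were RBP5 (0.297), LUM (0.311) and AXL (0.319), against 0.488. For MMP1 they were GRB10 (0.296), S100A16 (0.304) and ADAM9 (0.311), against 0.524, and for TIMP1 SELP (0.304), HK1 (0.305) and CFL2 (0.326), against 0.565. For MMP9 they were EPHX1 (0.76), PDK4 (0.765) and VWF (0.769), against 1.11 for MMP9 itself. The measure grows with a gene's own spread, which was largest for MMP9 among the 5, so its distances cannot be compared directly with the others. The 3 nearest to DES are all genes of the contractile apparatus, and LUM, near COL1A2, encodes the collagen-binding proteoglycan lumican.

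A total of 6 lists of related genes, drawn up from general knowledge, held 66 tested genes besides the 5. After DOX limma called 0 of the 66, where 0.848% of all genes were called and 3417 of 24767 had an unadjusted p under 0.05; the smallest adjusted p was that of COL5A1 (log2 difference -0.64, adjusted p = 0.0545). After BUCY 10 of the 66 were called (15.2%, against 17.3% of all genes), 8 higher and 2 lower. For the difference between the drug effects 3 of the 66 were called (4.55%, against 5.88% of all genes), 2 higher and 1 lower. Between the untreated groups 6 of the 66 were called (9.09%, against 25.2% of all genes), 2 higher and 4 lower. The median of the 66 was 0.32 after BUCY and -0.024 after DOX, with medians of all genes at -0.0012 and 0.0077. With median normalisation the BUCY median of the 66 was -0.13, close to the all-gene median of -0.125, and without BUCY treated piglets 2 and 3 it was 0.091 with 2 genes called.

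**Figure D4:**
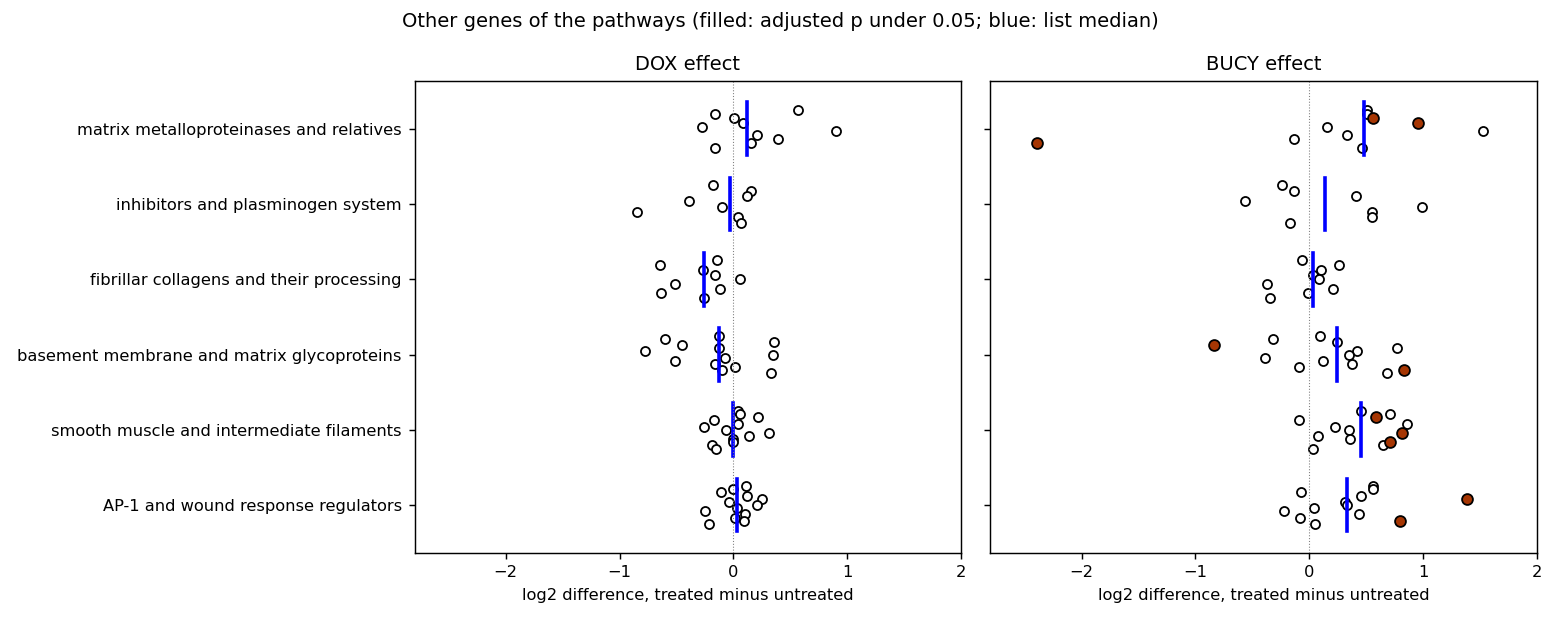
Log2 difference, treated minus untreated (horizontal axis), of the 66 other genes in 6 lists (vertical axis), for DOX on the left and BUCY on the right. Filled points have an adjusted p under 0.05, all of them in the BUCY panel; blue bars are list medians, which for smooth muscle lie at -0.00097 after DOX and 0.45 after BUCY.

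Among the other proteases, MMP20, ADAM9 and ADAMTS1 changed after BUCY. MMP20, enamelysin, known for its work in tooth enamel, fell by 2.39 on the log2 scale (SE 0.364, 5.24-fold, adjusted p = 2.57e-04). Its untreated piglets in the BUCY experiment ran from -0.48 to 2.29 around a mean of 1.20 ± 1.11 (SD, n = 5), while the other 3 groups had means of -1.62, -1.46 and -1.19, and it was above background in 3 of the 5 BUCY treated piglets. The size of the fall depended on the processing, from -1.98 with the mean of both MMP20 probes (adjusted p = 2.93e-04) to -4.66 with the scanner software's log ratio, and the call was kept in each of the 14 alternatives (adjusted p from 9.5e-05 to 0.0392). The untreated level in the BUCY experiment was 7.06-fold higher than in the untreated piglets of the DOX experiment (log2 difference 2.82, adjusted p = 4.67e-06). ADAMTS1, a secreted protease that cuts proteoglycans, rose 1.93-fold (0.95, adjusted p = 0.00309; 0.55 without BUCY treated piglets 2 and 3, adjusted p = 0.0484), and ADAM9, a membrane-bound shedding protease, rose by 0.56 (adjusted p = 0.0378). The ADAM9 call was lost when BUCY treated piglet 2, 3 or 5 or untreated piglet 1, 3, 4 or 5 of that experiment was left out (0.423 to 0.581, adjusted p = 0.051 to 0.131).

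MMP12, the macrophage elastase, had a log2 difference of 1.53 after BUCY that did not pass (adjusted p = 0.0516), and 0.90 after DOX (adjusted p = 0.426). MMP3, stromelysin 1, which activates other metalloproteinases, had 0.46 and -0.16, and MMP14, a membrane-anchored collagenase, 0.33 and 0.21, with no call. MMP2, gelatinase A, had -0.13 after BUCY (adjusted p = 0.502) and 0.39 after DOX (adjusted p = 0.113). Between the untreated groups MMP2 was 1.70-fold higher in the BUCY experiment (0.77, adjusted p = 8.59e-05), on the same side as MMP9, but not with median normalisation (0.50, adjusted p = 0.131). ADAM9 was lower there (-0.49, adjusted p = 0.04), a call lost without any of 8 single untreated piglets (-0.518 to -0.36, adjusted p = 0.0501 to 0.14). The MMP20, MMP2 and ADAM9 calls are among the 6 of 66 list genes (9.09%) called between the untreated groups, against 25.2% of all genes.

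No gene of the inhibitor and plasminogen list passed after either drug. TIMP2, the relative of TIMP1, had 0.068 after DOX and -0.17 after BUCY (adjusted p = 0.583). PLAU, the urokinase that activates plasminogen, had 0.41 after BUCY (adjusted p = 0.222). SERPINE2, protease nexin 1, had -0.85 after DOX and 0.55 after BUCY, and the difference between these passed (1.40, adjusted p = 0.0332). That call was lost without any 1 of 11 piglets spread over the 4 groups (1.21 to 1.39, adjusted p = 0.052 to 0.0703), with median normalisation (1.07, adjusted p = 0.279) and without BUCY treated piglets 2 and 3 (1.04, adjusted p = 0.158). Between the untreated groups SERPINE2 had -0.63 (adjusted p = 0.0982).

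In the fibrillar collagen list 8 of 9 genes were lower after DOX, with a median of -0.26 and 0 called, and 9 of 9 were lower with median normalisation. The median of all genes after DOX was 0.0077, and median normalisation moved it to -0.0138. The collagen chaperone SERPINH1 had -0.64 (adjusted p = 0.0995), lumican (LUM) -0.52 (adjusted p = 0.175) and COL5A2 -0.27 (adjusted p = 0.423). SPARC, a collagen-binding glycoprotein, had -0.34 after BUCY (adjusted p = 0.156) and 0.32 between the untreated groups (adjusted p = 0.155). After BUCY the list had a median of 0.031, which turned to -0.40 with median normalisation. COL5A1, a chain of type V collagen, which sits inside type I fibrils, was higher by 0.91 in the BUCY effect relative to the DOX effect (adjusted p = 0.0245). That call was lost in 6 of 14 alternatives, among them the mean of its probes (0.52, adjusted p = 0.0781), median normalisation (0.63, adjusted p = 0.248) and the removal of BUCY treated piglets 2 and 3 (0.80, adjusted p = 0.0905), and kept its direction in all 14. Its DOX treated piglets had a mean of -0.31 ± 0.229 (SD, n = 6) against 0.33 ± 0.401 (SD, n = 6), and its BUCY treated ones 0.46 ± 0.223 against 0.20 ± 0.233 (SD, n = 5 each).

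**Figure D5:**
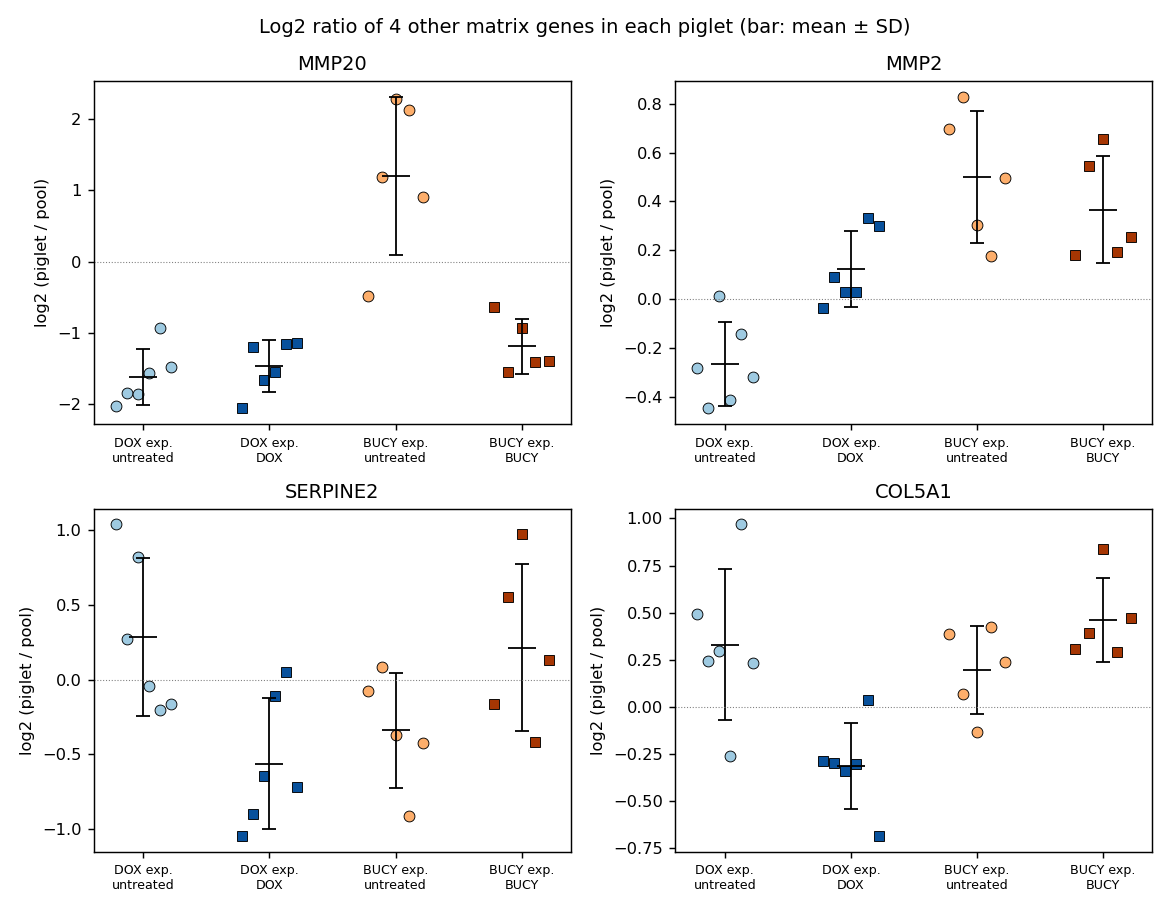
Log2 ratio to the pool (vertical axis) of MMP20, MMP2, SERPINE2 and COL5A1 in the 4 groups (horizontal axis), with 1 point per piglet and the mean ± SD. MMP20 is high in the untreated piglets of the BUCY experiment (mean 1.20), and COL5A1 and SERPINE2 are lower after DOX and higher after BUCY than in their controls, by means of -0.64 and 0.26 and of -0.85 and 0.55.

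Of the basement membrane and matrix glycoprotein genes, VCAN, which encodes the large proteoglycan versican, rose 1.77-fold after BUCY (0.83, adjusted p = 0.0308), and MFAP2, a component of elastic microfibrils, fell 1.79-fold (-0.84, adjusted p = 0.00654; -0.77 without BUCY treated piglets 2 and 3, adjusted p = 0.0654). Periostin (POSTN) had -0.77 after DOX and 0.42 after BUCY, neither called. VCAN rested on BUCY treated piglets 2 and 3: without them its difference was 0.20 (adjusted p = 0.448). Its call was also lost without piglet 2 or 3 alone of either BUCY group (0.582 to 0.846, adjusted p = 0.0527 to 0.11), and the difference between the drug effects was 0.93 (adjusted p = 0.127). LAMC1, a laminin chain, had 0.36 after DOX (adjusted p = 0.146) and 0.26 between the untreated groups (adjusted p = 0.12), the latter at -0.023 with median normalisation.

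In the smooth muscle list 12 of 13 genes were higher after BUCY and 3 were called, 23.1% against 17.3% of all genes, but only 7 of 13 were higher with median normalisation, with 0 called. TPM1 (tropomyosin) rose 1.64-fold (0.71, adjusted p = 0.0381), PLN (phospholamban, a regulator of the calcium pump) 1.76-fold (0.82, adjusted p = 0.0334) and DMD (dystrophin) by 0.59 (adjusted p = 0.0144). MYL9 had 0.86 (adjusted p = 0.0526), CNN1 0.71 (adjusted p = 0.13) and ACTA2 0.45 (adjusted p = 0.309). Without BUCY treated piglets 2 and 3, 11 of 13 were higher, with a median of 0.33 and 0 called. Leaving out treated piglet 2 or 3 alone ended all 3 calls. TPM1 also lost its call without BUCY untreated piglet 1, 2 or 3 (0.466 to 0.729 over the 5, adjusted p = 0.0576 to 0.124), PLN without untreated piglet 1, 3 or 4 (0.644 to 0.82, adjusted p = 0.0587 to 0.111), and DMD stood at 0.474 and 0.509 (adjusted p = 0.0514 and 0.0529). TPM2 had 0.83 for the difference between the drug effects (adjusted p = 0.164). KCNMB1, a potassium channel subunit of smooth muscle, had -0.17 after DOX (adjusted p = 0.461) and was lower in untreated piglets of the BUCY experiment (-0.41, adjusted p = 0.00569; -0.75 from Cy5 alone, adjusted p = 0.183). The same list had a median of -0.00097 after DOX, with 6 of 13 higher.

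Among regulators that switch on metalloproteinase and TIMP1 genes in other settings, IL1B, the cytokine interleukin 1 beta, rose 2.61-fold after BUCY (1.38, adjusted p = 0.00846) and STAT3, a transcription factor downstream of interleukin 6, rose 1.74-fold (0.80, adjusted p = 0.0127). IL1B had a log2 difference of 0.76 without BUCY treated piglets 2 and 3 (adjusted p = 0.0975) and STAT3 0.46 (adjusted p = 0.216). STAT3 also lost its call with slide as a fixed block (0.55, adjusted p = 0.121) and without the arrays with a suffix in the title (0.83, adjusted p = 0.0838). JUN and FOS, the components of AP-1, had 0.33 and -0.073 after BUCY and 0.20 and -0.11 after DOX, with no call. Between the untreated groups TNF (-0.35, adjusted p = 0.0139) and the neutrophil attractant CXCL8 (-0.92, adjusted p = 0.0402) were lower in the BUCY experiment, the opposite side to MMP9. The TNF call was lost with median normalisation (-0.46, adjusted p = 0.103), from Cy5 alone (-0.21, adjusted p = 0.25) and with the mean of its probes (-0.20, adjusted p = 0.0828). The CXCL8 call was lost without any 1 of 8 untreated piglets (-0.964 to -0.731, adjusted p = 0.0552 to 0.122). It was also lost in 5 of 15 limma fits with other processing, among them the deposited value table (-0.90, adjusted p = 0.0586), with the direction kept. NFKB1 had -0.25 after DOX (adjusted p = 0.297), and STAT3 had 0.71 for the difference between the drug effects (adjusted p = 0.155). The 10 calls after BUCY went to 1 when only the BUCY experiment was fitted, which left MMP20 (adjusted p = 0.0223).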

How the data were processed

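Per the labels, Cy5 carried the piglet and Cy3 the common pool on every array, so no dyes were swapped. The deposited scanner files hold median spot and background intensity and a log10 ratio, written by Agilent Feature Extraction 10.7.3.1 per the file headers, with other columns of quality flags. The authors' deposited value table holds log2 ratios; its normalisation is not given in the sources used here, and it matched loess- and quantile-normalised signals (r from 0.999 to 1 per array). It was an alternative only.

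Median signals were corrected by normexp (offset 50) and normalised by loess within arrays with limma 3.58.1 in R 4.3.3, with control spots at weight 0. Outlier spots, 3 to 52 per array, were dropped and spots of a probe averaged. Of 43603 probes, 6700 (15.4%) received a symbol through RefSeq (Sscrofa11.1), giving 3029 symbols; the rest kept the array's identifier. The brightest probe stood for a gene, tested if it cleared background in Cy5 on 5 or more arrays. No probe sequence was used.

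A single limma model of the 4 group means (two-sided, 18 residual degrees of freedom, Benjamini-Hochberg over 24767 genes, threshold 0.05) gave 4 comparisons: each drug's effect, BUCY effect minus DOX effect, and untreated BUCY minus untreated DOX experiment. The last shares its piglets with both effects. It was tested on simulated data. Pair correlations used 100000 permutations within groups in Python 3.11.15. The replicate is the piglet. The 5 genes and the lists were chosen with earlier results of these data known. Genes named from a list are those called, or else the one with the smallest p in each comparison; COL5A2, SERPINH1, LUM, MMP3, MMP12, MMP14, TIMP2, PLAU, POSTN, MYL9, CNN1, ACTA2, JUN and FOS were chosen after their values were seen. The values of 1 gene that the rule names are not reported here.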

Additional observations from a re-analysis of the deposited data

Results flagged for a closer look

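In groups of 5 or 6 piglets, 100 gene and group combinations were examined for a single value far from the rest, and 7 were found; chance gives about 1 in 20. DES in DOX treated piglet 3 stood at -1.39, PLN in the same piglet at -1.14 and TPM1 at -0.91. TPM2 in BUCY treated piglet 3 stood at 1.52. In untreated piglets of the BUCY experiment, ADAM9 was at -0.89 in piglet 4, LAMC1 at -0.041 in piglet 5, and TPM1 at -0.42 in piglet 3. The BUCY and DOX effects differed by limma's interaction term for MMP20 (-2.54, adjusted p = 0.00454), SERPINE2 (1.40, adjusted p = 0.0332) and COL5A1 (0.91, adjusted p = 0.0245). These are 3 of the 66 list genes (4.55%), where 5.88% of all genes were called. The COL5A1 call was lost in 6 of 14 alternatives, with values from 0.52 to 1.03, and that of MMP20 without the arrays with a suffix in the title (-2.29, adjusted p = 0.0985). SERPINE2 lost its call with median normalisation (adjusted p = 0.279), without suffixed arrays (adjusted p = 0.23) and without BUCY treated piglets 2 and 3 (adjusted p = 0.158).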

How the results depend on the processing

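With median normalisation the BUCY difference was 0.221 for MMP1, 0.496 for TIMP1, -0.775 for COL1A2 and 0.383 for DES. The 210 genes called after DOX became 89 with median normalisation, 695 with scaling between arrays, 135 from Cy5 alone, 349 and 355 with slide as a fixed or random block, 499 without BUCY treated piglets 2 and 3, and 742 with only the DOX experiment fitted. The 0 list genes became 4 with scaling, 1 each with the mean of probes, slide as a fixed block or those piglets left out, and 2 with only the DOX experiment. The 4279 BUCY calls became 2296 with slide as a fixed block, 1481 without 6 arrays with a suffix in the title, 1127 without piglets 2 and 3 and 897 with only the BUCY experiment; the 10 list calls became 6 with median normalisation, 2 and 1 under the last pair. Slide as a fixed block takes BUCY treated piglet 2, alone on its slide, out of the comparison. For the difference between drugs, 1456 calls became 104 with median normalisation, 752 from Cy5 alone, 330 without suffixed arrays and 732 without piglets 2 and 3, and the 3 list calls became 1 with median normalisation and 1 without suffixed arrays. Between untreated groups, 6240 became 3849 with median normalisation, and 6 list calls became 3 with it, 2 from Cy5 alone and 11 with only these groups; LAMC1 turned to -0.023 with median normalisation. For pairs with MMP9, r turned positive with median normalisation (0.382 with MMP1, 0.115 with TIMP1, 0.284 with COL1A2, 0.187 with DES), without suffixed arrays (0.206, 0.145 and 0.576 with TIMP1, COL1A2 and DES), and without BUCY treated piglets 2 and 3 (0.00375, 0.0136 and 0.234 with MMP1, TIMP1 and DES). It was 0.0547 with MMP1 under scaling and 0.0458 with DES from the mean of probes. By r, TIMP1 with COL1A2 no longer passed with scaling (0.449), the mean of probes (0.524), scan day (0.638), no suffixed arrays (0.627) or without piglets 2 and 3 (0.501), nor TIMP1 with DES with slide (0.659), scan day (0.665), no suffixed arrays (0.369) or without those piglets (0.418); by rank TIMP1 with COL1A2 still passed with scaling (adjusted p = 0.0489) and both pairs with scan day (adjusted p = 0.0463), by the same permutation test. MMP1 with TIMP1 passed with median normalisation (0.666) and slide (0.634), and COL1A2 with DES with median normalisation (0.618), Cy5 alone (0.61) and slide (0.691). Leaving out 1 array at a time gave 119 to 358 DOX calls, 2281 to 6290 BUCY calls, 938 to 2392 for the difference and 5245 to 6751 between untreated groups, with 0 to 2, 5 to 14, 2 to 6 and 4 to 7 list calls; the fewest BUCY calls came without BUCY treated piglet 2 or 3. In those fits MMP20, ADAMTS1, MFAP2, IL1B and STAT3 stayed called after BUCY, and ADAM9 lost its call in 7, PLN and TPM1 in 5, VCAN in 4 and DMD in 2 of 22. The removal of piglets 2 and 3 from the pair correlations was chosen after seeing the data, and the cause of these changes was not tested. No paired analysis was possible because the labels give the piglets no shared replicate numbers. Signal over background limits MMP20, which was above it in 3 of 5 BUCY treated piglets.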
